A study of Mus musculus with 9 samples.

Results

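The proteasome genes were taken as every row of the count table whose symbol follows 1 pattern: Psm, a letter from a to g, and a number, as in Psma1, Psmc4 or Psme2b. This rule used no measured value and found 49 of 55401 genes. They comprised 7 genes of the alpha ring and 7 of the beta ring (together the constitutive core), 3 immunoproteasome subunits, 2 core subunits known from testis or thymus, 6 ATPases and 11 other subunits of the 19S regulator, 3 chaperones of the 19S base, 6 activators and inhibitors, and 4 core assembly chaperones. Enough counts for a test were found for 48 of them. Psmb11, the core subunit of thymus epithelium, had 0 counts in all 9 libraries, and Psma8, the alpha subunit of testis, had 4 to 28 normalized counts.

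The proteasome is the chamber in which cells cut up proteins that carry ubiquitin chains. Its barrel, the 20S core, is built of alpha and beta rings, and the caspase-like, trypsin-like and chymotrypsin-like cutting sites lie in the beta subunits Psmb6, Psmb7 and Psmb5. The 19S regulator caps the barrel, binds ubiquitin, unfolds the protein and feeds it in. Interferon-γ leads cells to build Psmb9, Psmb10 and Psmb8 into new cores in place of Psmb6, Psmb7 and Psmb5, and such immunoproteasomes cut peptides suited to MHC class I. Leukocytes carry immunoproteasomes without stimulation, whereas hepatocytes mostly carry the constitutive form.

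RNA of whole liver from female mice was sequenced in 9 libraries, 3 in each of 3 groups. For HCC, mice obtained at 6 weeks of age received sleeping beauty plasmids for myr-AKT and NRas-v12 by hydrodynamic tail vein injection, which reaches hepatocytes. Untreated HCC livers were given AAV8 blank control and miR-22-treated HCC livers AAV8-miR-22, both by vein 1 week after the oncogenes, and livers of both groups were taken 5 weeks after the oncogenes. Healthy livers had neither plasmids nor virus, so that tumor and virus cannot be told apart in comparisons with them. The AKT plasmid carries the EF1α promoter and the NRas plasmid the Caggs promoter, and miR-22 was cloned behind a CMV promoter, none of which is specific to a cell type. The protocol and the paper's methods name FVB/N mice for these livers, whereas another label field gives C57BL/6. The protocol also lists a plasmid for N90-β-catenin, which the design text does not name for these livers. Each library is labelled as its own sample, and as no label ties it to a separate animal, p-values measure the spread between these samples.

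The healthy libraries held 18258660 to 20964551 counts, the untreated HCC libraries 18293676 to 23908392 and the miR-22-treated HCC libraries 16664659 to 20459853. In every pair of libraries of the same group the counts differed by more than sampling noise (chi-square divided by its degrees of freedom, 6.59 to 31.3). Summed hepatocyte markers (5 of 5 genes found) were at 119450 to 124320 counts per 1000000 (CPM) in healthy livers, at 48414 to 60164 in livers with untreated HCC and at 72421 to 89884 in those with miR-22-treated HCC. In a bulk sample, fewer cells of a type and less RNA per cell cannot be told apart. The library miR-22-treated HCC replicate 2 stood apart, with 6438 counts in 6 genes of pancreatic acinar cells against 5 to 330 in the other libraries. For miR-22-treated against untreated HCC, values of the named proteasome genes that moved by over 1.5 times or past the adjusted p without it are given both ways.

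After TMM, a scaling that sets most genes to no change, summed proteasome transcripts stood at nearly the same level in the 3 groups. Their share of all counts, given below, was higher in both HCC groups than in healthy livers. On the TMM scale the 49 genes summed to 3245 to 3445 CPM in healthy, 3227 to 3582 in untreated HCC livers and 3522 to 3679 in miR-22-treated HCC livers. The ranges of healthy and untreated HCC livers overlapped, and those of miR-22-treated HCC lay above the healthy ones. A gene was called changed at an adjusted p under 0.05 in edgeR's quasi-likelihood test and a fold change over 1.5. In untreated HCC against healthy livers 3 of 48 proteasome genes were called, all higher (Psmb8, Psmd8 and Psmd10), and 0 were lower. Of all 15717 genes tested, 40.8% were called, with 22.7% higher and 18.1% lower. Among the 10515 genes with a mean of at least 100 normalized counts the share was 37.9%.

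On the same TMM scale, the flat profile also showed in the size of the changes. The log2 fold change lay within 1.2-fold for 35 of 48 proteasome genes (72.9%), compared with 29.4% of all genes tested and 35.2% of the abundant ones. This band was set after the values for a slightly wider one had been seen. The 95% confidence interval stayed inside 1.5-fold in both directions for 40 of 48 (83.3%). The shares were 27.8% of all genes and 40.9% of the abundant ones, to which 46 of the 48 belong. The width of an interval depends on the counts, and the abundant genes were not matched in level to the proteasome genes. The median log2 fold change was 0.042 for the proteasome genes and 0.012 for all genes, and the interquartile range ran from -0.11 to 0.16 for the former and from -0.47 to 0.61 for the latter. With adjusted p alone, 6 proteasome genes were higher and 6 lower, against 29.4% and 26.8% of all genes. Of the 9 that were not called, 4 (Psma4, Psma6, Psmb10 and Psmd9) kept an adjusted p under 0.05 whichever liver was left out. The livers of the pair of groups did not overlap for 12 genes that were higher and 9 that were lower, against 33.9% and 31.4% of all genes. A positive log2 fold change was seen for 29 of 48, against 50.7% of all genes. These are counts beside the same counts over all genes, and no test of the list was made.

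The scaling bears on these directions. When libraries were scaled by their total counts instead, the median of all genes in untreated HCC against healthy livers moved up by 0.42 on the log2 scale. The median of the proteasome genes then stood at 0.46 beside 0.43 for all genes, 46 of 48 were positive, and 12 were called higher and 0 lower, while the calls over all genes went from 3575 higher and 2842 lower to 5986 higher and 1492 lower. The share of all counts that fell on proteasome genes was 0.283% to 0.299% in healthy, 0.393% to 0.412% in untreated HCC livers and 0.346% to 0.369% in miR-22-treated HCC livers. Log2 fold changes given here are relative to the TMM scale, and genes whose direction turns under total counts are named as such.

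**Figure D1:**
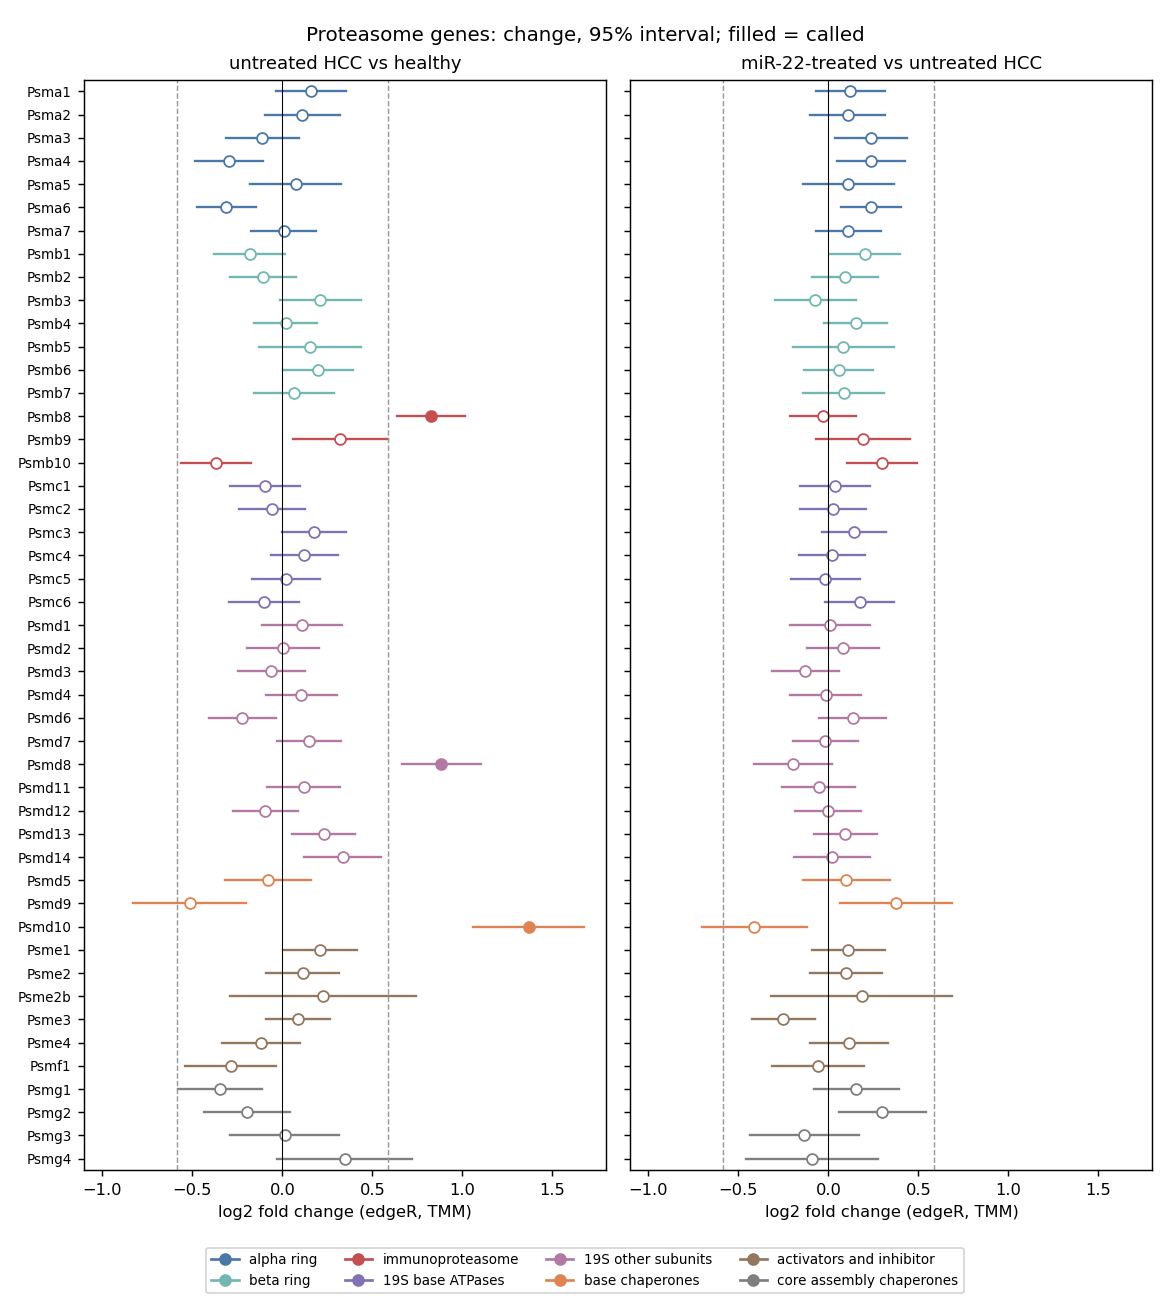
Log2 fold change (x axis, edgeR with TMM) of 47 proteasome genes for untreated HCC against healthy livers and miR-22-treated against untreated HCC livers (3 livers per group). Points are estimates, lines are 95% confidence intervals, filled points passed both thresholds, dashed lines mark 1.5-fold and colors mark the class. Psma8, at 4 to 28 normalized counts, is not drawn. Psmb8, Psmd8 and Psmd10 stand to the right of the dashed line in the left panel, and no point is filled in the right panel. Points to the left of 0 in the left panel are so on the TMM scale, and under scaling by total counts 46 of the 48 genes tested were positive there.

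The constitutive core, the barrel itself, showed 0 of 14 genes called in untreated HCC against healthy livers by edgeR and 0 by DESeq2, with 3 at an unadjusted p under 0.05. Its median log2 fold change was 0.04, and its genes ranged from -0.31 for Psma6 to 0.21 for Psmb3, with an SD of 0.17 among the 14. Summed over the 14 genes, the level was 1095 to 1170 CPM in healthy, 1020 to 1158 in untreated HCC livers and 1160 to 1253 in miR-22-treated HCC livers. Each HCC range overlapped the healthy one.

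In the alpha ring, which forms the outer gate of the barrel, Psma6 had 1675, 1606 and 1704 normalized counts in the healthy livers, 1331, 1295 and 1393 in untreated HCC and 1549, 1649 and 1540 in miR-22-treated HCC. All untreated HCC livers were below all livers of the other groups. The log2 fold change in untreated HCC was -0.31 (SE 0.076, adjusted p = 0.00378 by edgeR), under the fold threshold, and turned to 0.11 under total counts. Psma4 had 2365, 2384 and 2351 normalized counts in healthy and 2105, 1803 and 1877 in untreated HCC livers, also without overlap, with a log2 fold change of -0.30 (SE 0.087, adjusted p = 0.0111 by edgeR) that turned to 0.13 under total counts. Psma1 came next in the ring by p, at 0.16 (SE 0.089, adjusted p = 0.152 by edgeR), and was at 0.24 without untreated HCC replicate 3 (adjusted p = 0.0396 by edgeR). A measure free of the scaling is the share within the barrel: of every 1000 counts of the 14 core genes, Psma6 held 75.1 to 78.7 in healthy and 59.3 to 65.4 in untreated HCC livers, and the ranges did not overlap. The beta ring holds the cutting sites, and on the TMM scale 0 of its 7 genes passed even the adjusted p in untreated HCC. DESeq2 called 0 of them, and 1 had an unadjusted p under 0.05. Under total counts the ring's Psmb3 and Psmb6 were called higher. Its structural subunits Psmb3 and Psmb1 were at 0.21 (SE 0.10, adjusted p = 0.102 by edgeR) and -0.18 (SE 0.090, adjusted p = 0.103 by edgeR), the latter 0.24 under total counts. Without healthy replicate 2 Psmb3 was at 0.11.

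The 3 immunoproteasome subunits did not move together in untreated HCC. Psmb8, the chymotrypsin-like subunit of the immunoproteasome (also known as LMP7), rose. On the TMM scale Psmb9 was slightly higher and Psmb10 lower, both under the fold threshold. Psmb8 lies on chromosome 17 at 34416690 to 34420428 on the plus strand and Psmb9 (LMP2) at 34400960 to 34406738 on the minus strand of the same chromosome, within the MHC region, where Psmb9 adjoins the peptide transporter gene Tap1. Psmb10 (MECL-1) lies on chromosome 8 at 106662362 to 106665077 on the minus strand (GRCm39, GENCODE vM39).

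Psmb8 had 666, 570 and 656 normalized counts in the healthy livers, 1125, 1088 and 1137 in untreated HCC and 1041, 1101 and 1142 in miR-22-treated HCC. Both HCC groups lay above every healthy liver and overlapped each other. The fold change in untreated HCC was 1.77 (log2 0.82, SE 0.087, adjusted p = 5.18e-06 by edgeR), with 3 of 3 livers higher. Psmb9 had 385, 362 and 416 normalized counts in healthy, 483, 460 and 512 in untreated HCC and 500, 662 and 504 in miR-22-treated HCC livers. Again the HCC livers lay above the healthy ones, but by less. Its fold change in untreated HCC was 1.25 (log2 0.32, SE 0.12, adjusted p = 0.039 by edgeR). Under total counts the log2 value was 0.74 (adjusted p = 9.06e-05 by edgeR), and Psmb9 was called. Psmb9 shares 743 exon bases with Tap1 on the opposite strand, and 36.7% of its 31-base stretches also occur in Tap1, which was itself higher in untreated HCC (log2 0.70). The kit did not mark strand, so the reads of the shared stretch cannot be told apart.

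Psmb10, the trypsin-like subunit of the immunoproteasome, had 688, 729 and 713 normalized counts in the healthy livers, 542, 528 and 579 in untreated HCC and 634, 732 and 665 in miR-22-treated HCC. The untreated HCC livers were the lowest 3, and the miR-22-treated ones overlapped the healthy ones. The log2 fold change in untreated HCC was -0.37 (SE 0.089, adjusted p = 0.00354 by edgeR) and 0.053 under total counts. Per 1000 counts of the 14 core genes, where no scaling enters, Psmb10 held 31.4 to 34.3 in healthy and 24.1 to 26.7 in untreated HCC livers. Psmb8 held 26.8 to 31.3 and 50.07 to 54.96 on the same measure, so that relative to the barrel transcripts Psmb8 was higher and Psmb10 lower, without overlap of the livers.

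The constitutive partners that these subunits replace showed no called change on the TMM scale. Under total counts Psmb6 was called higher in untreated HCC (log2 0.62, adjusted p = 9.73e-05 by edgeR). Psmb5 had 489, 451 and 591 normalized counts in healthy, 596, 590 and 520 in untreated HCC and 532, 570 and 701 in miR-22-treated HCC livers, and the 3 groups overlapped. Its log2 fold change in untreated HCC was 0.15 (SE 0.13, 95% interval -0.13 to 0.44), and it was 0.065 without healthy replicate 2 and 0.26 without healthy replicate 3. Psmb6 was at 0.20 (SE 0.090, 95% interval 0.0042 to 0.39, adjusted p = 0.0764 by edgeR) and Psmb7 at 0.07 (SE 0.10, 95% interval -0.16 to 0.29). The Psmb7 value was -0.0049 without untreated HCC replicate 4. Psmb5 shares 57.9% of its 31-base stretches with Gm3375 (118 to 276 counts), and Psmb7 33.5% with Nek6, a gene that overlaps its exons on the opposite strand and was higher in untreated HCC (log2 0.93). Per kilobase of the canonical transcript, the healthy livers had 79.0 ± 7.38 CPM per kb of Psmb6 and 14.8 ± 1.03 of Psmb9, 79.2 ± 4.39 of Psmb7 and 27.9 ± 0.806 of Psmb10, and 15.5 ± 2.18 of Psmb5 and 19.1 ± 1.60 of Psmb8 (SD, n = 3). By this level per length the constitutive subunit was the more abundant of its pair at the caspase-like and trypsin-like sites. At the chymotrypsin-like site Psmb8 was somewhat above Psmb5 in the healthy livers. The Psmb5 level is uncertain because of the sequence it shares with Gm3375. In untreated HCC livers the chymotrypsin-like pair stood at 17.2 ± 1.27 CPM per kb of Psmb5 and 33.8 ± 0.779 of Psmb8.

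**Figure D2:**
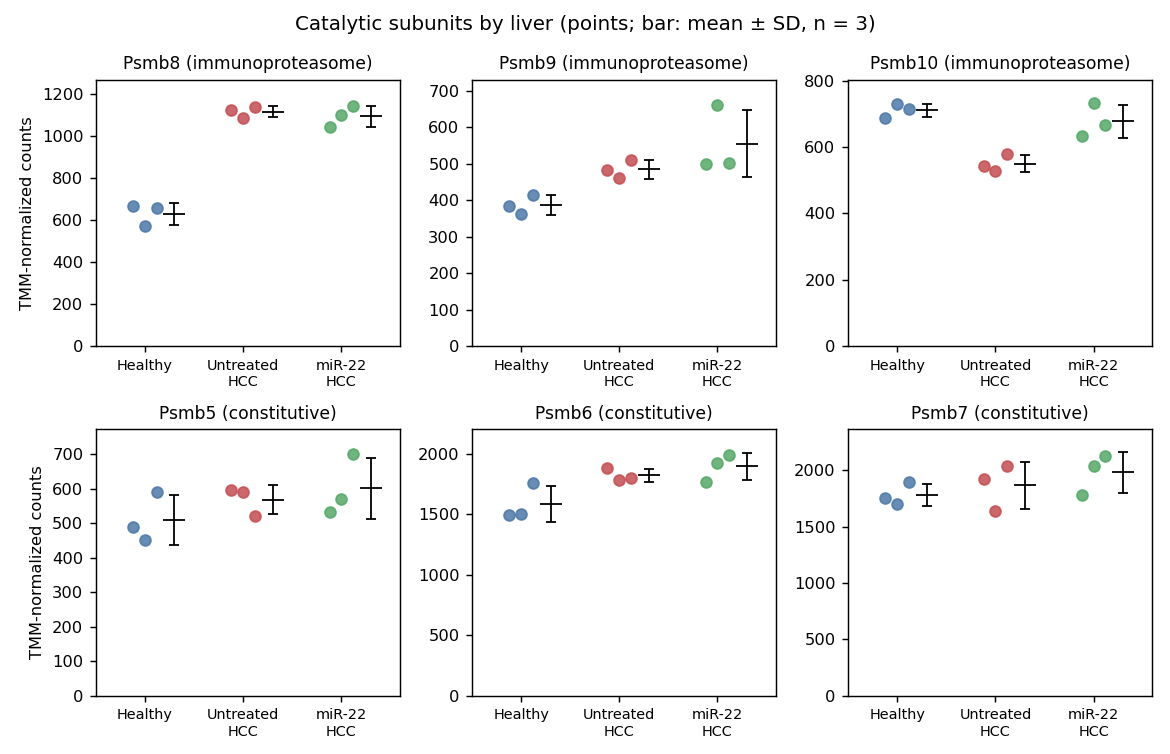
TMM-normalized counts (y axis, from 0) of the 3 immunoproteasome subunits and the 3 constitutive catalytic subunits in each liver of the 3 groups. Points are livers and bars the mean ± SD (n = 3). Psmb8 stood at 570 to 666 in healthy and 1041 to 1142 in all HCC livers, and Psmb10 was lowest in untreated HCC on this scale (a direction that turned under total counts).

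The balance of each pair was also expressed as a count ratio within each library, which needs no scaling. It is a ratio of transcripts, and the subunits built into cores were not measured. Psmb5, Psmb7 and Psmb9 share sequence with other genes, as given above, and this uncertainty enters the ratios. Psmb8 over Psmb5 was 1.36, 1.26 and 1.11 in the healthy livers, 1.89, 1.84 and 2.18 in untreated HCC and 1.96, 1.93 and 1.63 in miR-22-treated HCC. All 6 HCC livers were above all healthy ones. The mean ratio rose from 1.24 ± 0.127 to 1.97 ± 0.185 (SD, n = 3), 1.59-fold on the log scale, with an exact two-sided permutation p = 0.1, the smallest that 3 against 3 livers allow (0.225 after adjustment over 9 such tests). Psmb10 over Psmb7 was 0.392, 0.428 and 0.377 in healthy, 0.282, 0.323 and 0.284 in untreated HCC and 0.357, 0.360 and 0.313 in miR-22-treated HCC livers. It was lower in both HCC groups than in every healthy liver, by a log2 difference of -0.43 in untreated HCC livers and -0.22 in miR-22-treated HCC (exact permutation p = 0.1 in each, adjusted 0.225). Psmb9 over Psmb6 was 0.236 to 0.257 in healthy, 0.256 to 0.284 in untreated HCC livers and 0.253 to 0.344 in miR-22-treated HCC livers, and the groups overlapped (exact permutation p = 0.2 in untreated HCC against healthy). With 3 livers per group none of these 9 tests could go below 0.1.

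**Figure D3:**
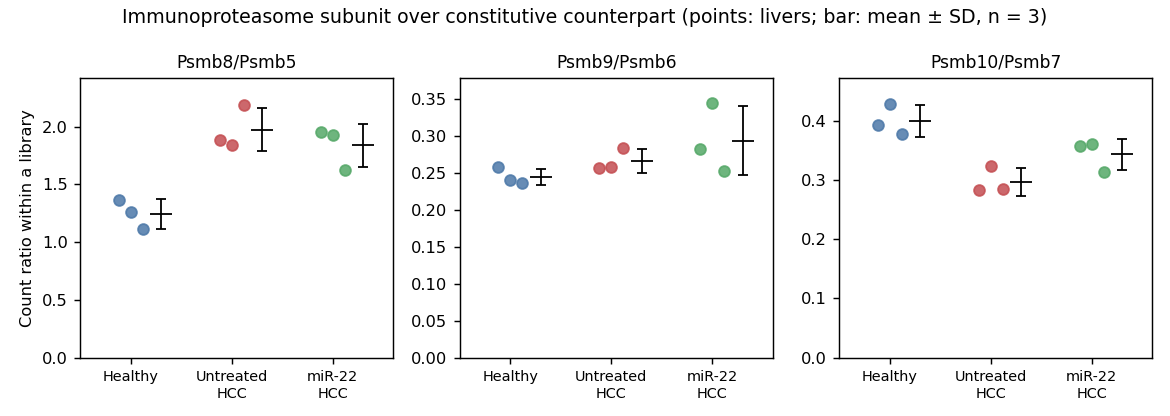
Ratio of counts of each immunoproteasome subunit to the constitutive subunit that it replaces (y axis, from 0), by liver. Points are livers and bars the mean ± SD (n = 3). Psmb8 over Psmb5 was higher in all 6 HCC livers than in the healthy livers, Psmb10 over Psmb7 was lower, and Psmb9 over Psmb6 overlapped between groups.

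Short promoter sequences of the beta subunits are shown because the transcription factors Nfe2l1 and Nfe2l2, described below, are known to bind antioxidant response elements, and interferon-γ is known to act through gamma-activated sites. The 4 motifs were searched on both strands from 250 bases before to 50 bases after the start of each gene's canonical transcript: TGACNNNGC (the core of the antioxidant response element), TTCNNNGAA (gamma-activated site), the interferon-stimulated response element and CCAAT. In the windows below, matches of different motifs do not overlap. Capitals mark the match, and each sequence is read 5′ to 3′ on the gene's strand of GRCm39: Psmb2 at chr4:126571414-126571438 (plus), Psmb5 at chr14:54855483-54855507 (minus), Psmb6 at chr11:70416166-70416190 (plus) and Psmb8 at chr17:34416692-34416716 (plus).
Psmb2: cgcgccagTGACTGGGCcgtcgcgc
Psmb5: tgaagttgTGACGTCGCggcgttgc
Psmb6: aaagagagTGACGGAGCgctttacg
Psmb8: gttgaggaTTCAAGGAAggagcgcg
The first 3 hold the antioxidant response element core, found in 3 of 7 beta ring promoters, 8 of 49 proteasome promoters (16.3%) and 12.5% of 21601 protein-coding promoters. The last holds the gamma-activated site pattern, found in 1 of 3 immunoproteasome promoters, 5 of 49 proteasome promoters (10.2%) and 8.9% of all. The Psmb8 match lies 10 bases after the transcript start. The windows of Psmb9 and Psmb10 held the letters of none of the 4 motifs. A match of letters is a description and not a measured binding site. The lack of a match to these strict patterns in 1 short window does not show that a gene lacks such an element.

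In the 19S regulator 1 of 17 genes was called, and it was the second largest change among the proteasome genes that were called. Psmd8, a lid subunit (Rpn12 in yeast) that completes lid assembly, lies on chromosome 7 at 28873612 to 28880135 on the minus strand. It had 1840, 1640 and 1741 normalized counts in the healthy livers, 3500, 3068 and 3060 in untreated HCC and 2489, 2889 and 3022 in miR-22-treated HCC. The 3 groups did not overlap, with miR-22-treated HCC in between. The fold change in untreated HCC was 1.84 (log2 0.88, SE 0.10, adjusted p = 1.06e-05 by edgeR), with 3 of 3 livers higher. Only 1.4% of its 31-base stretches occur in another gene, Gm14013, which had 0 counts in every library.

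A further 3 lid subunits passed the adjusted p without the fold, and they were chosen for this after their values were seen. Psmd14, the enzyme that cuts ubiquitin chains off the substrate, had 761, 880 and 898 normalized counts in healthy, 1196, 973 and 1034 in untreated HCC and 1112, 1070 and 1069 in miR-22-treated HCC livers. Every HCC liver was above every healthy one, with a log2 fold change of 0.33 in untreated HCC (SE 0.098, adjusted p = 0.0109 by edgeR). Psmd13, a structural lid subunit, was at 0.23 (SE 0.081, adjusted p = 0.0294 by edgeR), and Psmd6, another, at -0.22 (SE 0.086, adjusted p = 0.0432 by edgeR), which turned to 0.20 under total counts. The 6 ATPases of the base, the ring that unfolds the substrate, included 0 called by edgeR or DESeq2, and 0 at an unadjusted p under 0.05. The nearest was Psmc3 at 0.17 (SE 0.082, adjusted p = 0.0898 by edgeR), followed by Psmc4 at 0.12 (SE 0.085) and Psmc6 at -0.10 (SE 0.089, and 0.32 under total counts). Leaving out 1 liver moved Psmc4 to between 0.076 (without untreated HCC replicate 4) and 0.19 (without untreated HCC replicate 3), and Psmc6 to between -0.20 (without healthy replicate 1) and -0.057 (without healthy replicate 2).

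The largest called change was in a chaperone of the 19S base. Psmd10, known as gankyrin, holds a base ATPase during assembly and is known as an oncoprotein that also binds the retinoblastoma protein and MDM2. It lies on chromosome X at 139847687 to 139857477 on the minus strand. Psmd10 had 213, 187 and 176 normalized counts in the healthy livers, 528, 496 and 462 in untreated HCC and 350, 317 and 449 in miR-22-treated HCC. The 3 groups did not overlap, and miR-22-treated HCC lay in between. The fold change in untreated HCC was 2.58 (log2 1.37, SE 0.14, adjusted p = 4.55e-06 by edgeR), with 3 of 3 livers higher. It overlaps 66 exon bases of Atg4a on the opposite strand, and 2.6% of its 31-base stretches occur there.

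The other base chaperones, Psmd9 and Psmd5, had values below 0 on the TMM scale. Psmd9, which guards the tail of another ATPase, had 771, 623 and 622 normalized counts in healthy, 460, 422 and 527 in untreated HCC and 486, 703 and 642 in miR-22-treated HCC livers. Untreated HCC was below healthy without overlap, at a log2 fold change of -0.52 (SE 0.14, adjusted p = 0.00833 by edgeR), under the fold threshold, and it was -0.097 (adjusted p = 0.552 by edgeR) under total counts. Without untreated HCC replicate 4 the value was -0.61 and Psmd9 was called, the only change that leaving out 1 liver made to the proteasome genes called in this comparison. Psmd9 is named because it passed the adjusted p, a choice made after its values were seen. Psmd5, the remaining one, was at -0.079 (SE 0.11, adjusted p = 0.565 by edgeR) with overlapping livers, at 0.0067 without untreated HCC replicate 3 and at 0.34 under total counts.

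The activators and the inhibitor of the core showed 0 of 6 genes called by edgeR or DESeq2 in untreated HCC, with 2 at an unadjusted p under 0.05. Psme1 and Psme2 encode the interferon-inducible PA28 ring that opens the barrel for peptide export, and they stood at 0.21 (SE 0.094, adjusted p = 0.0776 by edgeR) and 0.11 (SE 0.092, adjusted p = 0.322 by edgeR). Psme1 had 1236, 1147 and 1311 normalized counts in healthy and 1565, 1349 and 1354 in untreated HCC livers, with no overlap, and was at 0.14 without untreated HCC replicate 2. Both values are uncertain because Psme2 shares 73.8% of its 31-base stretches with the copy Psme2b, and Psme1 58.2% with the overlapping gene Emc9, which was lower in untreated HCC (log2 -1.01). Psmf1, an inhibitor of the free core, was at -0.29 (SE 0.12, adjusted p = 0.0525 by edgeR) and 0.13 under total counts. Of the 4 core assembly chaperones, which pair up the alpha subunits, 0 were called by edgeR or DESeq2, with 1 at an unadjusted p under 0.05. Psmg1 was at -0.34 (SE 0.11, adjusted p = 0.0155 by edgeR), Psmg4 at 0.35 (SE 0.17, adjusted p = 0.105 by edgeR) and Psmg2 at -0.20 (SE 0.11, adjusted p = 0.15 by edgeR). Psmg1 and Psmg2 turned to 0.078 and 0.22 under total counts.

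**Figure D4:**
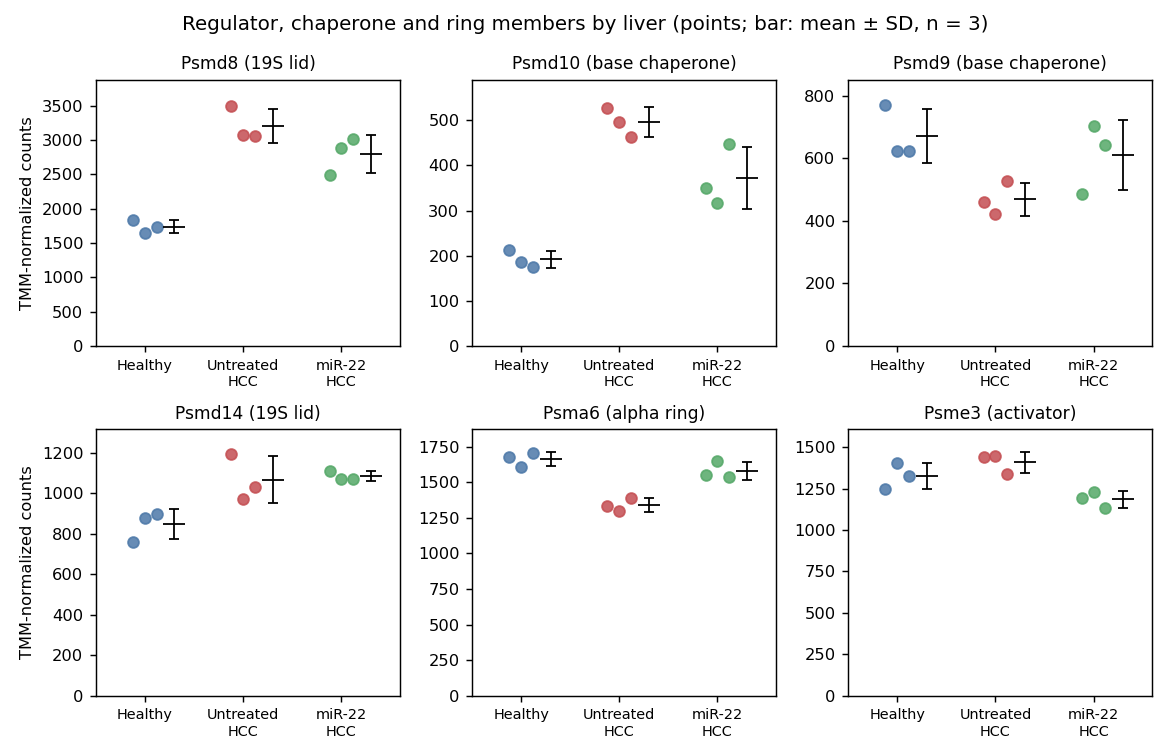
TMM-normalized counts (y axis, from 0) of Psmd8, Psmd10, Psmd9, Psmd14, Psma6 and Psme3 in each liver of the 3 groups. Points are livers and bars the mean ± SD (n = 3). Psmd8 and Psmd10 rose from healthy through miR-22-treated to untreated HCC livers without overlap, whereas Psma6 and Psmd9 were lowest in untreated HCC on this scale (Psma6 turned under total counts).

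On the TMM scale, the proteasome genes of miR-22-treated HCC livers stood close to their level in untreated HCC. In miR-22-treated against untreated HCC livers 0 of 48 were called by edgeR and 0 by DESeq2, 9 had an unadjusted p under 0.05, and 13.8% of all genes were called (8.32% higher and 5.47% lower). Without miR-22-treated HCC replicate 2 the number called was still 0. The log2 fold change lay within 1.2-fold for 43 of 48 (89.6%), against 47.9% of all genes and 55.4% of the abundant ones, and the 95% interval inside 1.5-fold for 44 (91.7%), against 41.2% and 59.8%. The median was 0.093 for the proteasome genes and 0.0020 for all genes, and 34 of 48 were positive, against 50.2%. Under total counts the median of all genes moved down by 0.24, the medians were -0.14 and -0.23, 7 of 48 proteasome genes were positive, Psmd10 was called lower, and the calls over all genes went from 1308 higher and 859 lower to 835 higher and 2164 lower. The livers did not overlap for 10 genes that were higher and 3 that were lower, against 19.7% and 19.6% of all genes. With adjusted p alone 2 were higher (Psmb10 and Psma6) and 2 lower (Psmd10 and Psme3), against 13.6% and 10.4% of all genes.

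For Psmb8 the difference between the HCC groups was -0.03 (SE 0.085, 95% interval -0.21 to 0.16, adjusted p = 0.845 by edgeR), and 0.0039 without miR-22-treated HCC replicate 2. Psmb9 was at 0.19 (SE 0.12, adjusted p = 0.275 by edgeR), and at 0.050 without miR-22-treated HCC replicate 3. Psmb10 was at 0.30 (SE 0.089, adjusted p = 0.029 by edgeR), and 0.34 (adjusted p = 0.0318 by edgeR) without miR-22-treated HCC replicate 2. The constitutive partners Psmb5, Psmb6 and Psmb7 were at 0.08, 0.06 and 0.09 with SEs of 0.13, 0.089 and 0.10. They were at 0.16, 0.10 and 0.15 without miR-22-treated HCC replicate 2 and at -0.045, 0.018 and 0.031 without replicate 4 of that group, and all 3 were negative under total counts, as was Psmb9. Psmb8 over Psmb5 overlapped between the HCC groups (log2 difference -0.10, exact permutation p = 0.6).

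Psma6 was at 0.24 (SE 0.076, adjusted p = 0.0396 by edgeR) with all 3 treated livers above the untreated ones. Psme3, the nuclear activator that works without ATP, had 1441, 1447 and 1336 normalized counts in untreated HCC and 1192, 1230 and 1130 in miR-22-treated HCC livers. The treated livers were below all untreated ones, with a log2 fold change of -0.25 (SE 0.081, adjusted p = 0.0416 by edgeR). Psmd10 was at -0.41 (SE 0.13, adjusted p = 0.0435 by edgeR). Without miR-22-treated HCC replicate 2, the library with acinar transcripts, the adjusted p of Psma6, Psme3 and Psmd10 by edgeR became 0.0696, 0.0806 and 0.117. That library was not alone in this: of 9 fits that each left out 1 liver, only 2 kept an adjusted p under 0.05 for each of these 3 genes, and 6 did for Psmb10. Under total counts Psmb10 was at 0.063 and Psma6 at 0.00016, without passing the adjusted p, while Psme3 was at -0.49 and Psmd10 at -0.64, past the fold threshold for Psmd10. Psmd8 was at -0.20 (SE 0.10, adjusted p = 0.179 by edgeR), although its livers did not overlap, and at -0.12 (adjusted p = 0.454 by edgeR) without miR-22-treated HCC replicate 2.

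Against healthy livers the miR-22-treated HCC livers had the same 3 genes called, Psmb8, Psmd8 and Psmd10, all higher, with 24% of all genes called (16.9% higher and 7.05% lower). The same 3 were called without miR-22-treated HCC replicate 2. This comparison shares its healthy livers with the first and its treated livers with the second. Psmb8 was at 0.80 (SE 0.087, adjusted p = 2.25e-05 by edgeR), Psmd8 at 0.69 (SE 0.10, adjusted p = 0.00024 by edgeR) and Psmd10 at 0.96 (SE 0.14, adjusted p = 0.000269 by edgeR). Against a null of 1.5-fold rather than no change, edgeR's glmTreat kept Psmb8 and Psmd10, and Psmd8 had an adjusted p of 0.291. Psmb9 reached 0.52 (SE 0.12, adjusted p = 0.0058 by edgeR), under the fold threshold, and Psmb10 stood at -0.07 (SE 0.089, adjusted p = 0.586 by edgeR, -0.13 to -0.036 with 1 liver left out, and 0.12 under total counts).

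With adjusted p alone 10 proteasome genes were higher in miR-22-treated HCC than in healthy livers and 1, Psmf1, was lower, against 21.4% and 15.1% of all genes. They included the lid subunits Psmd14 (0.36) and Psmd13 (0.32), the ATPase Psmc3 (0.31), the activator Psme1 (0.32), the alpha subunit Psma1 (0.28) and the caspase-like subunit Psmb6 (0.26), each with an adjusted p of 0.00813 to 0.0417 by edgeR, while Psmf1 was at -0.34 (adjusted p = 0.0374 by edgeR). Of the 8 that were not called, 2 (Psmb9 and Psmd13) kept an adjusted p under 0.05 whichever liver was left out. The median of the 14 core genes was 0.14 beside 0.02 for all genes, and 0 of 14 were called by edgeR or DESeq2, with 3 at an unadjusted p under 0.05. Within 1.2-fold lay 37 of 48 genes (77.1%), against 41.7% of all genes. The livers did not overlap for 16 genes that were higher and 4 that were lower, against 26.6% and 22.2% of all genes, and 33 of 48 had a positive log2 fold change (45 under total counts), against 51.8%. Among the abundant genes 21% were called.

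Psmd8 and Psmd10 were the 2 proteasome genes whose livers rose without overlap from healthy through miR-22-treated to untreated HCC, a pattern found in 10.6% of all genes tested. The group means alone had this order for 9 of 48 proteasome genes and 33.5% of all genes.

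The genes that build and control the proteasome were described from 5 lists. The counts called in these and in the marker lists stand beside 22.7% higher and 18.1% lower of all genes in untreated HCC against healthy livers, 8.32% and 5.47% in miR-22-treated against untreated HCC, and 16.9% and 7.05% in miR-22-treated HCC against healthy. Of 13 assembly and bound factors 12 were tested, and 0 were called in any of the 3 comparisons by edgeR or DESeq2, with 4, 0 and 1 at an unadjusted p under 0.05. Pomp, the chaperone that closes the assembling barrel, had 1926, 1736 and 2053 normalized counts in healthy and 1593, 1418 and 1582 in untreated HCC livers. The groups did not overlap, with a log2 fold change of -0.32 (SE 0.094, adjusted p = 0.0117 by edgeR) that was 0.11 under total counts. The ubiquitin receptor Adrm1 was at 0.02 (SE 0.082) and the small 19S subunit Sem1 at 0.09 (SE 0.13). Fbxo7, a ubiquitin ligase subunit that binds Psmf1, was at -0.39 (SE 0.10, adjusted p = 0.00705 by edgeR) and the proteasome-binding protein Ecpas at -0.24 (SE 0.096, adjusted p = 0.0463 by edgeR), and these were 0.037 and 0.18 under total counts. Akirin2, which takes proteasomes into the nucleus, was at 0.26 (SE 0.11, adjusted p = 0.0566 by edgeR), at 0.16 without healthy replicate 1 and at 0.34 (adjusted p = 0.0297 by edgeR) without healthy replicate 3. Sem1 was at 0.019 without healthy replicate 2 and 0.024 without untreated HCC replicate 3.

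Among the 5 regulators of proteasome genes, 1 was called higher and 1 lower in untreated HCC. Nfe2l1 (NRF1), the transcription factor that drives proteasome genes when degradation falls short, had 2744, 2908 and 3051 normalized counts in healthy and 3218, 3144 and 3182 in untreated HCC livers. The livers did not overlap, but the log2 fold change was only 0.13 (SE 0.091, adjusted p = 0.232 by edgeR), and 0.081 without healthy replicate 1. Nfe2l2 (NRF2), its relative that drives antioxidant genes, had 1621, 1662 and 1581 in healthy, 4320, 3386 and 3296 in untreated HCC and 2298, 2185 and 2853 in miR-22-treated HCC livers. It rose in untreated HCC by 1.18 on the log2 scale (SE 0.13, adjusted p = 6.26e-06 by edgeR) and stood between the other groups in miR-22-treated HCC.

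Ddi2, the protease that cuts NRF1 into its active form, fell. It had 6232, 6883 and 6457 normalized counts in healthy, 3405, 3341 and 4148 in untreated HCC and 4872, 5368 and 5164 in miR-22-treated HCC livers, with no overlap between any groups. Its log2 fold change in untreated HCC was -0.85 (SE 0.11, adjusted p = 2.37e-05 by edgeR). Under total counts it was -0.43 (adjusted p = 0.00148 by edgeR), which is under the fold threshold. Ngly1, which removes sugars from NRF1, was at -0.50 (SE 0.11, adjusted p = 0.00152 by edgeR), under the fold threshold, and -0.082 under total counts. In miR-22-treated against untreated HCC 0 of the 5 were called by edgeR and 1 by DESeq2 (3 at an unadjusted p under 0.05, and the same number at an adjusted p under 0.05 by edgeR). Nfe2l2 was at -0.58 (adjusted p = 0.00568 by edgeR), just short of the fold threshold, and was called in 6 of 9 fits that left out 1 liver and under total counts (-0.82). Ddi2 was at 0.50 (adjusted p = 0.00551 by edgeR) and was called in 1 of the 9 (0.27 under total counts). Nfe2l2 was called in miR-22-treated HCC against healthy (0.59), a call that DESeq2 did not make (0.57) and that was lost without healthy replicate 1 (0.58), healthy replicate 3 (0.56) or miR-22-treated HCC replicate 4 (0.47).

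Of the 14 genes for ubiquitin, its shuttles and the extraction of substrates, 1 was called higher and 2 lower in untreated HCC. Ubqln2, a shuttle that carries ubiquitinated proteins to the 19S, had 452, 454 and 442 normalized counts in healthy, 1831, 1911 and 1473 in untreated HCC and 904, 699 and 837 in miR-22-treated HCC livers. The 3 groups did not overlap. The log2 fold change was 1.95 in untreated HCC (SE 0.12, adjusted p = 8.41e-08 by edgeR) and -1.09 with miR-22 against untreated HCC (SE 0.12, adjusted p = 0.000123 by edgeR), the only gene of this list called in that comparison. The related shuttle Ubqln4 was at -0.58 (SE 0.095, adjusted p = 0.000206 by edgeR), just under the fold threshold, and was called in 4 of 9 fits that left out 1 liver (-0.16 under total counts).

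Psmb8 was compared with the genes that work beside the immunoproteasome. In the MHC class I peptide loading list 3 of 11 genes were called higher and 1 lower in untreated HCC (22.7% and 18.1% of all genes), and 2 higher in miR-22-treated HCC against healthy (16.9% of all genes). The gene called lower was Erap1, which trims peptides for class I and is named after its values were seen, with 2572, 2972 and 2654 normalized counts in healthy, 1837, 1658 and 1826 in untreated HCC and 2532, 2765 and 2099 in miR-22-treated HCC livers. It fell by 0.62 on the log2 scale in untreated HCC (SE 0.11, adjusted p = 0.000355 by edgeR) and was at 0.47 with miR-22 against untreated HCC (adjusted p = 0.00838 by edgeR), under the fold threshold. The fall was under the fold threshold without healthy replicate 2 (-0.57), without untreated HCC replicate 3 (-0.57) and under total counts (-0.20). The transporter subunit Tap1 had 583, 435 and 444 normalized counts in healthy, 768, 834 and 767 in untreated HCC and 665, 679 and 662 in miR-22-treated HCC livers, with no overlap. It rose by 0.70 on the log2 scale in untreated HCC (SE 0.11, adjusted p = 0.000179 by edgeR). The class I heavy chains H2-K1 and H2-D1 rose by 0.71 and 0.78 (SEs 0.11, adjusted p = 0.000179 and 5.57e-05 by edgeR), while the other transporter subunit Tap2 was at 0.25 (SE 0.089, adjusted p = 0.0285 by edgeR) and the light chain B2m at 0.08 (SE 0.12, and 0.046 without untreated HCC replicate 2).

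In the interferon response list 6 of 16 genes were called higher and 0 lower in untreated HCC, and 9 higher and 1 lower in miR-22-treated HCC against healthy, where 22.7% and 18.1%, and 16.9% and 7.05%, of all genes were. The receptor subunits Ifngr1 and Ifngr2 rose by 0.91 and 1.27 (SEs 0.11 and 0.13) and Irf7 by 1.11 (SE 0.22), with adjusted p of 1.64e-05, 4.47e-06 and 0.000869 by edgeR. Irf1, the factor that relays interferon-γ to the immunoproteasome genes, had 1179, 907 and 805 normalized counts in healthy, 720, 752 and 715 in untreated HCC and 594, 512 and 753 in miR-22-treated HCC livers. Both HCC groups lay below the healthy one, at -0.40 in untreated HCC (SE 0.15, adjusted p = 0.0372 by edgeR, and 0.022 under total counts) and -0.63 in miR-22-treated HCC (adjusted p = 0.00621 by edgeR). The untreated HCC value was -0.25 without healthy replicate 1 (adjusted p = 0.17 by edgeR). The miR-22-treated call was lost without healthy replicate 1 (-0.48), without miR-22-treated HCC replicate 3 (-0.51) and under total counts (-0.44). Nlrc5, the activator of MHC class I genes, was at 0.47 (SE 0.14, adjusted p = 0.012 by edgeR) in untreated HCC livers and 0.77 in miR-22-treated HCC. The former was 0.29 without untreated HCC replicate 3 (adjusted p = 0.0616 by edgeR) and was called without untreated HCC replicate 4 (0.59). In miR-22-treated against untreated HCC 0 genes of either list were called by edgeR or DESeq2, with 2 of the class I and 5 of the interferon genes at an unadjusted p under 0.05.

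Leukocyte transcripts moved with Psmb8. Ptprc, which encodes CD45, had 445, 411 and 446 normalized counts in healthy, 688, 699 and 702 in untreated HCC and 770, 690 and 642 in miR-22-treated HCC livers, so that both HCC groups lay above the healthy one and overlapped each other. Its log2 fold change in untreated HCC was 0.68 (SE 0.094, adjusted p = 4.9e-05 by edgeR). Of 5 leukocyte markers 4 were called higher in untreated HCC livers and 5 in miR-22-treated HCC against healthy livers, and their sum was 48.3 to 57.5 CPM in healthy, 93.5 to 96.3 in untreated HCC livers and 83.8 to 97.3 in miR-22-treated HCC livers. The 3 immunoproteasome genes summed to 85.6 to 92.0, 107 to 115 and 112 to 129 CPM in the same order. The part of leukocytes in the Psmb8 difference was not tested.

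Markers of single cell types gave a mixed picture beside it. In untreated HCC against healthy livers, 3 of 4 genes were called for dendritic cells (2 higher, 1 lower) and 1 of 5 for macrophages (higher). For neutrophils 2 of 2 tested were called (higher) and for B cells 1 of 4 (lower). For T cells 1 of 5 was called (higher) by edgeR and 0 by DESeq2, with log2 fold changes from -0.85 (Cd3d) to 0.83 (Cd8a). For NK cells 0 of 2 tested were called (0 by DESeq2 and 0 at an unadjusted p under 0.05). Summed T cell markers were at 3.96 to 5.47 CPM in healthy, 5.68 to 7.52 in untreated HCC livers and 5.10 to 6.80 in miR-22-treated HCC livers, and neutrophil markers at 0.252 to 1.70, 6.95 to 9.72 and 6.38 to 10.6. The neutrophil gene Ly6g was at 0 in all healthy and untreated HCC livers. Called were also 3 of 4 markers of bile duct cells (higher), 3 of 4 of stellate cells and fibroblasts (2 higher, 1 lower), 2 of 4 of endothelium (lower) and 5 of 5 of hepatocytes (lower). None of these lists was tested for a part in the proteasome values.

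**Figure D5:**
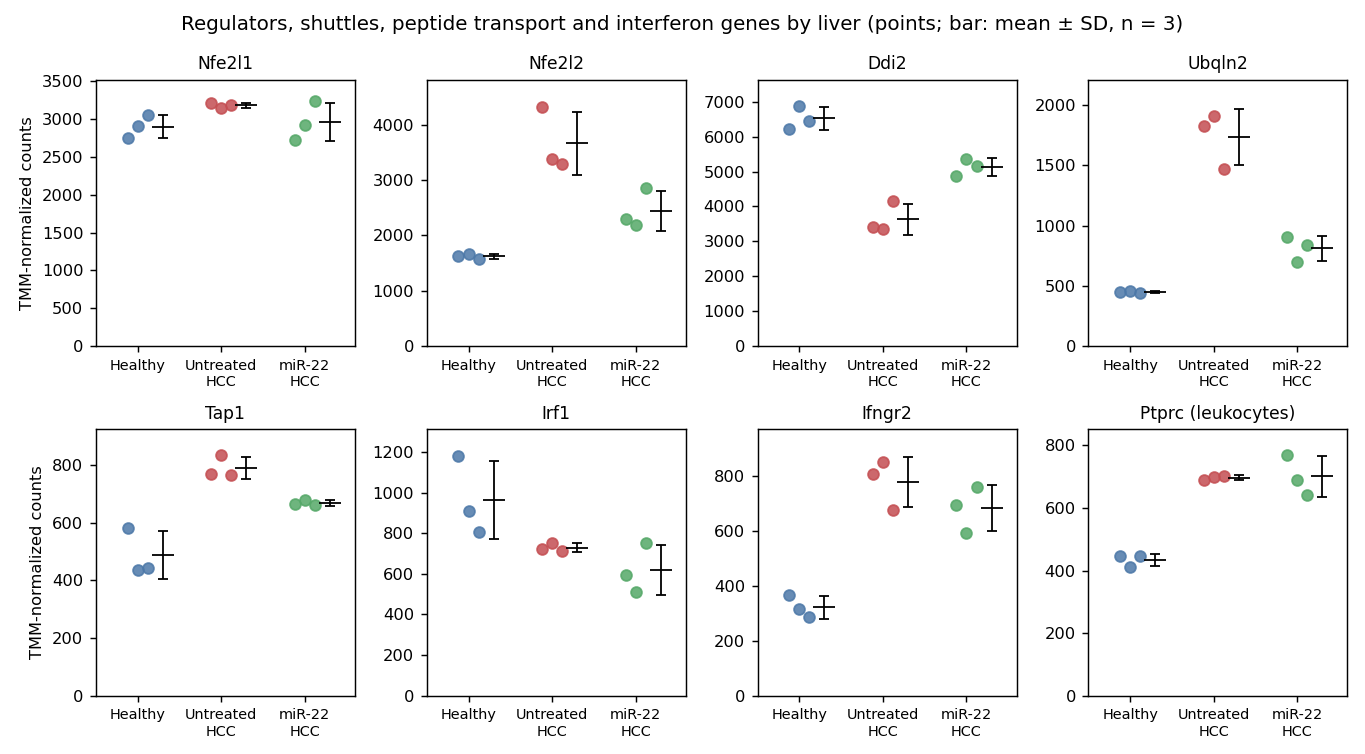
TMM-normalized counts (y axis, from 0) of Nfe2l1, Nfe2l2, Ddi2, Ubqln2, Tap1, Irf1, Ifngr2 and the leukocyte gene Ptprc in each liver of the 3 groups. Points are livers and bars the mean ± SD (n = 3). Nfe2l1 stood at 2729 to 3234 in all 9 livers, whereas Nfe2l2 and Ubqln2 were highest and Ddi2 lowest in untreated HCC, and Irf1 was lower in both HCC groups (in untreated HCC only on the TMM scale).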

How the data were processed

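RNA sequencing of whole liver was analysed for 9 libraries (3 healthy, 3 untreated HCC and 3 miR-22-treated HCC livers). Per the paper's methods, Salmon was run by the authors against GRCm39, and the deposited counts are its gene sums, neither normalized nor filtered. The deposited signal values are the counts after division by size factors of DESeq2, and they served only as a check: multiplied back, 100% came out whole (tolerance 0.05), and edgeR then called the same numbers of genes (6417, 2167 and 3772). Submitters' processing notes also name FastQC 0.11.7 and DESeq2 1.18. Salmon divides reads that match several genes by estimation. In GENCODE vM39, 19 of 49 proteasome genes share at least 10% of their 31-base stretches with another gene. The authors used another GENCODE release, which may lack some of these other genes. No columns of other samples were used.

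Tests were made in R 4.3.3 with edgeR 4.0.16 (TMM, filterByExpr, two-sided quasi-likelihood test, all 9 libraries in a single fit of 3 groups without covariates) on 15717 genes, with Benjamini-Hochberg adjustment over all of them. The threshold was an adjusted p below 0.05 with a fold change above 1.5. Count ratios used a pseudocount of 0.5 and an exact permutation test. Promoters and exon overlaps were read from GRCm39 with GENCODE vM39. Named were the 6 catalytic subunits, in each class the genes called in any comparison or else the 3 with the smallest p in untreated HCC against healthy, set partner genes and up to 4 more per partner list by p, with other choices stated where they occur. The proteasome genes, the lists and the alternatives were chosen with earlier results of these data known, and the 1.2-fold band was set after values for a slightly wider band had been seen. Alternatives were DESeq2 1.42.0, other size factors, other filters, a fit of 2 groups, a replicate block, each liver left out, other fold thresholds, a pseudocount of 5 and, chosen after seeing the data, scaling by total counts and the recovered counts. Depth was 16664659 to 23908392 counts per library. The code was tested on simulated counts. Figures were drawn with Python 3.11.15 and matplotlib 3.10.9. Single values of 2 genes of the partner lists are not reported here.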

Additional observations from a re-analysis of the deposited data

How the results depend on the processing

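DESeq2, DESeq2 size factors, upper-quartile scaling, no filter, at least 10 counts in every library, a fit of only the 2 groups compared and the recovered counts left the proteasome genes called at 3, 0 and 3 in untreated HCC against healthy, miR-22-treated against untreated HCC, and miR-22-treated HCC against healthy livers, and the 3 genes were Psmb8, Psmd8 and Psmd10 in both comparisons with calls. Against a null of 1.5-fold (glmTreat) they were 3, 0 and 2. With no fold threshold the numbers were 12, 4 and 11. Under total counts they were 12, 1 (Psmd10, lower) and 4, and the genes added in untreated HCC against healthy were Psmb3, Psmb6, Psmb9, Psmc3, Psmd13, Psmd14, Psme1, Psme2b and Psmg4, and in miR-22-treated HCC against healthy Psmb9. Of the partner genes named, Ddi2 and Erap1 lost their call in the first of these comparisons and Irf1 in the second. Leaving out each liver gave 3 to 4, 0 and 3 to 4, and the added genes were Psmd9 (lower) and Psme2b. With the replicate number as a block the numbers were 3, 0 and 3. Same-numbered HCC livers deviated from their group means with correlations of -0.23 to -0.12. No HCC liver correlated best with its own number in the other HCC group. With deviations from means of 3 livers, this cannot decide whether the numbers pair the samples. In untreated HCC against healthy livers, total counts turned the log2 fold changes of Psmb10 to 0.053, Psma4 to 0.13, Psma6 to 0.11, Psmb1 to 0.24, Psmc6 to 0.32, Psmd5 to 0.34, Psmd6 to 0.20, Psmf1 to 0.13, Psmg1 to 0.078, Psmg2 to 0.22, Pomp to 0.11, Fbxo7 to 0.037, Ecpas to 0.18 and Irf1 to 0.022. In miR-22-treated against untreated HCC they turned Psmb9 to -0.047, Psmb5 to -0.15, Psmb6 to -0.18 and Psmb7 to -0.15, and in miR-22-treated HCC against healthy Psmb10 to 0.12. The block turned Psmb7 to -0.0065 and Adrm1 to -0.021 in untreated HCC against healthy. Values near 0 also turned when 1 liver was left out, with ranges of -0.0049 to 0.15 for Psmb7, -0.15 to 0.0067 for Psmd5 and -0.044 to 0.064 for Adrm1 in untreated HCC against healthy, and of -0.06 to 0.0039 for Psmb8, -0.045 to 0.16 for Psmb5 and -0.0025 to 0.16 for Psmb7 in miR-22-treated against untreated HCC. The shift under total counts follows from its construction, and the other causes were not tested. Of the proteasome genes that passed the adjusted p without the fold, 4 of 9, 0 of 4 and 2 of 8 did so whichever liver was left out. Count ratios kept their direction with a pseudocount of 5 and without each liver. With 3 livers per group, genes near 4 to 28 counts such as Psma8 could not be resolved.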

Other observations

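The letters of the interferon-stimulated response element were in 7 of 49 proteasome promoters (14.3%) and 3.8% of 21601 protein-coding promoters. The 7 included 2 of 7 alpha ring genes (Psma4 and Psma5), 2 of 11 other 19S subunits and 0 of 3 immunoproteasome genes. CCAAT was in 18 of 49 (36.7%) and in 39.9% of all promoters. These counts were not tested.

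Of the 6 acinar genes, a list added after seeing the data, each had 825 to 1588 counts in miR-22-treated HCC replicate 2 and 24 to 89 in untreated HCC replicate 4. Exons of 25 of 49 proteasome genes overlap an exon of another gene, and the library kit did not mark strand.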
